A study of Mus musculus with 24 samples.

Results

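The genes described here encode the core of the perineuronal net, and they are the 4 lecticans Acan, Bcan, Ncan and Vcan, the 4 link proteins Hapln1, Hapln2, Hapln3 and Hapln4, and the tenascin Tnr. They were taken by symbol from both count tables, where all 9 were found among 55254 genes. They were chosen by the nuclear RNA level of Acan, which was lower in the NeuN+ libraries labelled Mutyh-/- than in WT, so that comparison is described below without a test. Nuclear RNA was sequenced from the hippocampus of male mice of the C57BL/6N strain at an age of 6 months, whose nuclei were sorted by flow cytometry for NeuN, a protein of neuronal nuclei, into NeuN+ (neuronal) and NeuN- (non-neuronal) nuclei. The groups were WT, Mutyh-/- and Ogg1-/-, which each lack a DNA glycosylase of the repair of oxidised guanine, and DKO, which lacks both, with 3 libraries for each genotype and cell type and 24 libraries in all. The 2 losses are constitutive, so neurons and glia both carried them, and the DKO mice came from crossing the single knockouts. The study speaks in general of independent biological replicates, while its RNA methods describe nuclei pooled from several animals of a genotype and do not say that each library had a pool of its own. The p-values measure the spread between these libraries, which may be technical.

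A perineuronal net is a dense extracellular matrix around the cell body and proximal dendrites of certain neurons, above all parvalbumin interneurons and, in the hippocampus, CA2 pyramidal neurons. Long hyaluronan chains made at the cell surface form its backbone. Lecticans, which are chondroitin sulfate proteoglycans, bind hyaluronan at one end and tenascin-R at the other, and link proteins fasten the lectican to the hyaluronan. Neurons and glia both supply components, and closing of the nets accompanies the loss of juvenile plasticity.

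Each link protein gene lies beside a lectican gene in the mouse genome. In GRCm38, Acan (chr7:79053483-79115099, plus strand) and Hapln3 (chr7:79115102-79131018, minus strand) end tail to tail with 2 bases between them, and Ncan (chr8:70093085-70120873, minus strand) and Hapln4 (chr8:70083457-70090862, plus strand) end 2222 bases apart. Vcan (chr13:89655312-89742509, minus strand) and Hapln1 (chr13:89539796-89611652, plus strand) also face each other with their 3′ ends, 43659 bases apart. Bcan (chr3:87987531-88000230) and Hapln2 (chr3:88021750-88027583) both lie on the minus strand, 21519 bases apart. Tnr (chr1:159523769-159931729, plus strand) has no such partner, and its 407961 bases make it the longest of the 9 genes. Counts of Tnr, Vcan, Hapln1 and Ncan carry an added uncertainty because other annotated genes overlap them. An antisense gene lies within Tnr and within Vcan (Gm38039 and Gm4117), pseudogenes lie within Vcan and Hapln1 (Gm16318 and Gm8546), Mir7066 lies in Ncan, and Gm37731 and Gm10530 lie on the strand of Tnr. The handling of strand and of overlapping genes in the counting is not given in the sources used here. With only 2 bases between Acan and Hapln3, transcripts that run past the end of one would enter the other gene. The 2 genes lie on opposite strands, so such reads would be counted for the other gene only if strand was ignored.

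The 250 bases before the transcription start annotated in RefSeq are shown for Acan, whose level chose the group, and for Bcan and Tnr. Bcan is a member high in NeuN- nuclei and Tnr one read strongly in both populations. These sequences were picked because their base composition differs widely. The sequences are from RefSeq (GRCm38.p6), which had a promoter for 8 of the 9 genes, all but Hapln4. For Acan and Bcan the RefSeq start lies upstream of the gene start given above, while for Tnr the 2 are the same. They are written 5′ to 3′ on the strand of the gene, and capitals mark matches to the GC box GGGCGG or its reverse complement CCGCCC.
Acan, chr7:79052976-79053225, plus strand: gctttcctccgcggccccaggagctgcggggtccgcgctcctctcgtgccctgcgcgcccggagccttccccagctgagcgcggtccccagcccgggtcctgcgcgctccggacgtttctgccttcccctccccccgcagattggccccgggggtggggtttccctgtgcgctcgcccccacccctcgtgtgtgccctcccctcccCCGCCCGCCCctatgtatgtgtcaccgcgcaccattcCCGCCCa
Bcan, chr3:88000357-88000606, minus strand: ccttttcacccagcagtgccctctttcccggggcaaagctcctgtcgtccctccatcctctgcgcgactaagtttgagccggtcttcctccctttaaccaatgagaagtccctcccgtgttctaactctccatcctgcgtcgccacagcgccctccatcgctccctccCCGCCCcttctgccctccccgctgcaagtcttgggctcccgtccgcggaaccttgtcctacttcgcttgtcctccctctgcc
Tnr, chr1:159523519-159523768, plus strand: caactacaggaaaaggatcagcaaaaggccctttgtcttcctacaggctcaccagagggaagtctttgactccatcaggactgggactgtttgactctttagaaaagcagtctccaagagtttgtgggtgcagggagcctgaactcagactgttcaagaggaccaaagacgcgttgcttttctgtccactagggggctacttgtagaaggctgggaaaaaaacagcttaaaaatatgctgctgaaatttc
The Acan sequence was 74.4% G or C with 26 CpG dinucleotides, a G and C content above that of 95.7% of 27018 mouse promoters of the same length, for which the median was 52% with 6 CpG. It held 3 GC box matches, the first 2 of which overlap. The Bcan sequence was 62% G or C with 16 CpG and 1 match, and the Tnr sequence was 46.8% G or C with 2 CpG and 0 matches. Among all promoters 32.9% held at least 1 match on either strand. The remaining 5 sequences lay between 52.4% (Hapln2) and 62.4% (Vcan).

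Depth was high in every library, with 56563586 to 96192142 counts (median 70434612), and each of the 9 genes passed the filter on low counts in both cell types. Levels are given as CPM, the count of a gene relative to the total of its library, scaled by TMM factors over the 24 libraries. The level of Mutyh went against its label, and a count per gene cannot tell the deleted exons from the rest. Mutyh RNA was 1.15, 1.28 and 1.27 CPM in NeuN+ WT libraries and 11.4, 11.5 and 9.88 CPM in those labelled Mutyh-/-, and 8.47, 9.20 and 12.2 CPM in those labelled DKO. Ogg1 RNA was 2.77 to 3.77 CPM over the 12 NeuN+ libraries, and the WT libraries spanned this whole range. Genotype names below are therefore those of the labels. In WT the neuronal markers summed to 6031 CPM in NeuN+ and 497 CPM in NeuN- nuclei, and the oligodendrocyte markers to 121 and 6249 CPM.

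The first question was which nuclei carried RNA of each gene. In WT, Hapln4 was the only member called higher in NeuN+ nuclei, and Hapln2, Vcan, Bcan, Hapln3, Acan and Hapln1 were called higher in NeuN- nuclei. A call needed an adjusted p under 0.05 in edgeR's quasi-likelihood test and an absolute log2 fold change above 1. By this rule 7 of 9 members were called, against 42.9% of the 33523 genes tested. The median log2 fold change of NeuN+ against NeuN- was -1.47 over the members and -0.01 over all genes. NeuN+ and NeuN- libraries were run in different lanes, so the lane cannot be told apart from the sorted population.

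Among the lecticans, Acan (aggrecan, the proteoglycan most used to mark the nets) was read at 4.95, 3.89 and 3.91 CPM in NeuN+ WT and at 12.6, 11.0 and 11.8 CPM in NeuN- WT libraries. The groups did not overlap, and Acan was lower in NeuN+ by a log2 fold change of -1.47 ± 0.12 (SE, edgeR adjusted p = 1.55e-10). Bcan (brevican, made by astrocytes and oligodendrocyte lineage cells) stood at 28.7, 28.5 and 28.5 CPM against 316, 293 and 335 CPM, a log2 fold change of -3.46 ± 0.09 (edgeR adjusted p = 3.85e-19). Vcan (versican) stood at 16.2, 14.5 and 15.9 CPM against 198, 178 and 173 CPM, a log2 fold change of -3.56 ± 0.08 (edgeR adjusted p = 2.75e-20). Ncan (neurocan) was the exception among lecticans. Its NeuN+ values of 71.0, 74.7 and 76.7 CPM overlapped its NeuN- values of 76.0, 72.8 and 85.8 CPM, and the log2 fold change was -0.08 (95% interval -0.22 to 0.07, edgeR adjusted p = 0.333).

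The link proteins spanned the widest range. Hapln2, known from the nodes of Ranvier on myelinated axons, was read at 0.779, 0.826 and 0.578 CPM in NeuN+ WT and 90.8, 77.2 and 79.8 CPM in NeuN- WT, a log2 fold change of -6.82 ± 0.12 (edgeR adjusted p = 2.25e-21). Hapln4, which helps to place brevican at inhibitory synapses, went the opposite way with 8.06, 10.3 and 9.12 CPM in NeuN+ and 1.54, 1.85 and 2.11 CPM in NeuN- libraries. Its log2 fold change was 2.32 ± 0.12 (edgeR adjusted p = 4.36e-14). Hapln1, the cartilage link protein that is also required for normal nets, was read at 7.62, 7.40 and 6.92 CPM against 16.0, 18.1 and 20.5 CPM, a log2 fold change of -1.31 ± 0.15 (edgeR adjusted p = 6.54e-08). Hapln3 was the scarcest, at 0.389, 0.470 and 0.363 CPM in NeuN+ WT from 22 to 29 counts, and at 2.55, 2.61 and 3.40 CPM in NeuN- WT, with a log2 fold change of -2.80 ± 0.22 (edgeR adjusted p = 9.28e-11). Tnr (tenascin-R, which crosslinks lecticans) had 889, 823 and 895 CPM in NeuN+ and 1232, 1095 and 1176 CPM in NeuN- WT libraries. These groups did not overlap and the adjusted p was 5.99e-06 by edgeR, but the log2 fold change of -0.43 ± 0.07 was short of a call.

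**Figure D1:**
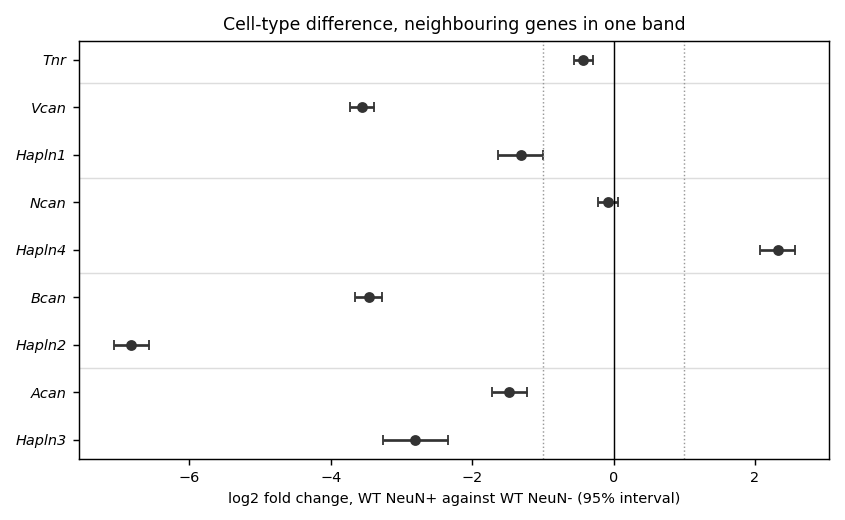
Log2 fold change (x axis) of each member between WT NeuN+ and WT NeuN- nuclei (3 libraries each), with 95% intervals from edgeR and dotted lines at the fold needed for a call; genes that lie side by side in the genome share a band. Hapln4, at 2.32, is the only member to the right of the upper line, and Hapln2, at -6.82, lies farthest to the left.

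Neighbours in the genome did not share a level of difference. Ncan and Hapln4 differed most in direction (-0.08 and 2.32), Bcan and Hapln2 had the same sign with different sizes (-3.46 and -6.82), and so did Vcan and Hapln1 (-3.56 and -1.31) and Acan and Hapln3 (-1.47 and -2.80). In the Ogg1-/- libraries, none of which entered the comparison that chose Acan, the differences between cell types were -1.58 for Acan, -1.82 for Hapln1, -3.08 for Hapln3, -3.40 for Vcan, -3.47 for Bcan, -6.39 for Hapln2, -0.29 for Tnr and 2.60 for Hapln4 on the log2 scale.

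Carry-over of glial nuclei can be read against the markers. In WT NeuN+ libraries the summed oligodendrocyte precursor markers (Pdgfra, Cspg4, Olig2 and Gpr17) stood at 0.868% of their NeuN- level, the oligodendrocyte markers at 1.94% and the astrocyte markers at 11.1%. Hapln2 stood at 0.881%, Vcan at 8.49% and Bcan at 9.07%. Hapln3 at 14.3%, Acan at 36.0%, Hapln1 at 40.2%, Tnr at 74.4%, Ncan at 94.8% and Hapln4 at 499% stood above all 3 of these marker levels. Microglial and endothelial markers stood at 16.3% and 9.42%, and choroid plexus markers at 54.0%, a share that rests on genes such as Kl and Prlr that the NeuN+ nuclei also held. The sums follow the most abundant markers, such as Slc1a2 for astrocytes and Mbp for oligodendrocytes, with NeuN+ medians of 259 and 104 CPM over 12 libraries. Marker by marker, the median log2 fold change of NeuN+ against NeuN- in WT was -4.21 for astrocytes (-4.43 to -2.94). It was -7.40 for oligodendrocytes, -6.86 for precursors and -6.00 for microglia. Vcan (-3.56) and Bcan (-3.46) lay above the astrocyte median and within that range. The part of glial carry-over in the NeuN+ level of each member was not tested.

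Levels of different genes are comparable only per length, and whether reads in introns were counted is not given in the sources used here. Per kilobase of exon, WT NeuN+ levels ran from Tnr (67.5 ± 3.10 CPM per kb, SD, n = 3) through Ncan (10.3), Bcan (7.03), Hapln4 (2.34), Hapln1 (1.24), Vcan (1.07), Acan (0.569 ± 0.0809) and Hapln2 (0.307) to Hapln3 (0.116), and no 2 neighbours in that order overlapped. In WT NeuN- nuclei the order by exon length was Tnr (90.8 ± 5.33), Bcan (77.5), Hapln2 (34.8), Vcan (12.6), Ncan (10.9), Hapln1 (3.08), Acan (1.58 ± 0.103), Hapln3 (0.812) and Hapln4 (0.468), again without overlap. Acan was seventh of the lecticans, link proteins and Tnr in both cell types on this scale. Divided by the whole gene span instead, an alternative added after the data were seen, Tnr stood close to Ncan and Bcan in NeuN+ nuclei (2.13, 2.67 and 2.25 CPM per kb of gene), and Acan was next to last in both cell types (0.0690 and 0.192). On that scale Hapln2 and Hapln1 overlapped in NeuN+, and Tnr overlapped Ncan, Hapln1 overlapped Hapln4, and Acan overlapped Hapln3 in NeuN- nuclei.

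The second question was whether the members differed between genotypes. In the NeuN+ comparison that chose Acan, the libraries labelled Mutyh-/- held 2.91, 2.44 and 2.75 CPM of Acan RNA against 4.95, 3.89 and 3.91 CPM in WT. All 3 Mutyh-/- libraries lay below all 3 WT libraries, and the log2 fold change was -0.65 ± 0.14 (SE). The counts behind these values were 166, 126 and 197 in Mutyh-/- and 305, 240 and 237 in WT. Hapln3, the gene that ends 2 bases from Acan, had 0.123, 0.155 and 0.377 CPM against 0.389, 0.470 and 0.363 CPM, from as few as 7 counts. Its groups overlapped through Mutyh-/- replicate 3, and its log2 fold change was -0.83 ± 0.36, or -1.54 without that library.

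Of the other members in this comparison, Hapln1 had 5.59, 6.55 and 5.20 CPM in Mutyh-/- against 7.62, 7.40 and 6.92 CPM in WT (log2 fold change -0.34 ± 0.11). Bcan had 36.7, 38.6 and 29.1 CPM against 28.7, 28.5 and 28.5 CPM (0.29 ± 0.09). Tnr had 1055, 1166 and 941 CPM against 889, 823 and 895 CPM (0.28 ± 0.07). The groups of these 3 genes did not overlap. Together with Acan that makes 4 of 9 members whose groups did not overlap, 2 higher and 2 lower, where 21.1% of the 30132 genes tested had groups that did not overlap. Hapln4 at 0.16, Hapln2 at 0.01, Vcan at -0.02 and Ncan at -0.04 had overlapping groups. The median log2 fold change was -0.02 over the members and -0.01 over all genes. Because this comparison chose the genes, nothing is read from these values.

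**Figure D2:**
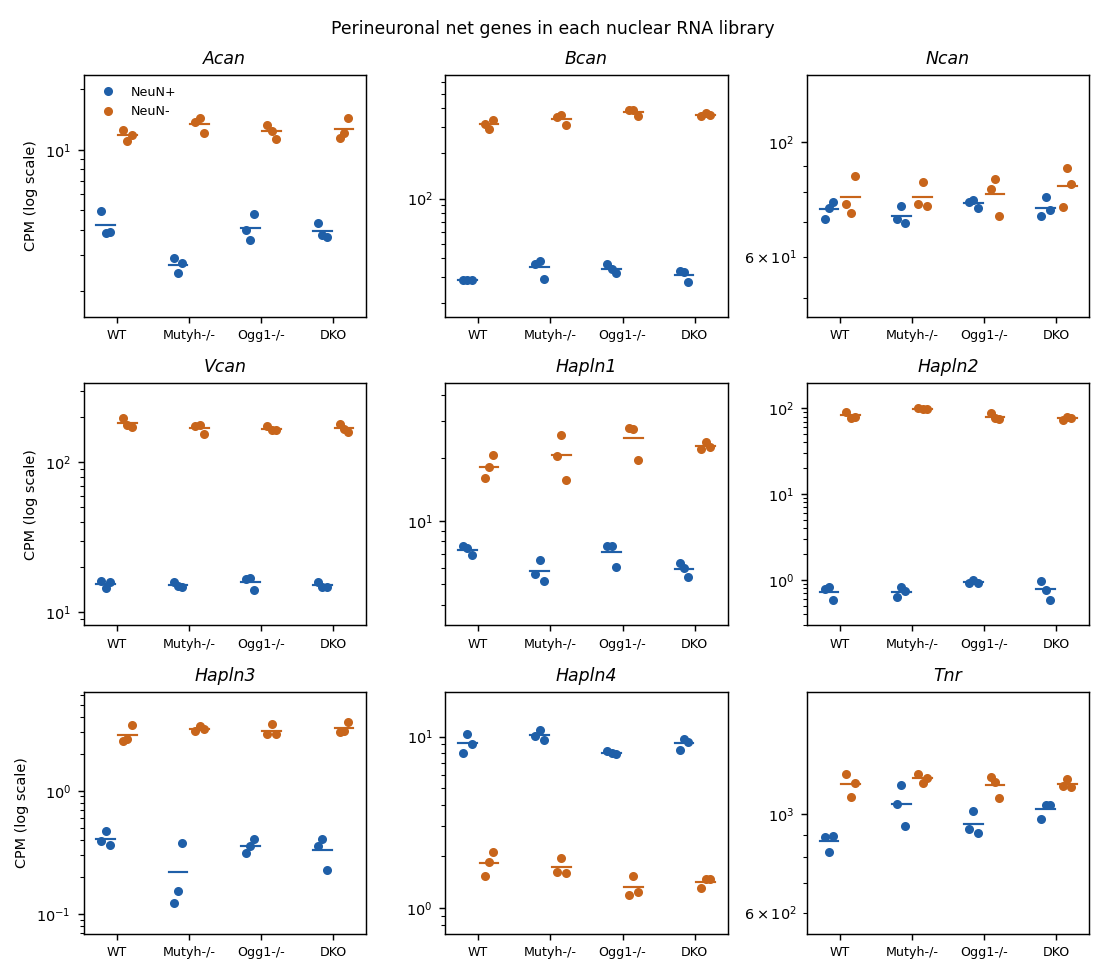
CPM (y axis, log scale, a separate range in each panel) of the 9 genes in all 24 libraries by genotype (x axis), with 1 point per library and a bar at the mean of 3, in blue for NeuN+ and orange for NeuN- nuclei. The 3 NeuN+ Acan points of Mutyh-/- (2.44 to 2.91 CPM) lie below every other NeuN+ Acan point, and the NeuN- Acan points of all genotypes overlap.

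Markers of the neurons that carry nets were compared in the same libraries. Of 8 genes listed as inhibitory interneuron markers, Gad1, Gad2, Slc32a1, Lhx6, Sst and Pvalb were lower in all 3 Mutyh-/- than in all 3 WT NeuN+ libraries. Kcnc1 and Tac1 overlapped. Over all 30132 genes tested, 21.1% had groups that did not overlap in either direction. Lhx6, a transcription factor of interneurons from the medial ganglionic eminence, had 5.64, 5.25 and 4.64 CPM against 7.15, 7.29 and 7.41 CPM. Gad1, which makes GABA, had 61.5, 68.7 and 50.4 CPM against 71.0, 74.6 and 78.8 CPM. The median log2 fold change over these 8 markers was -0.37, with 7 of 8 below 0. Their summed level, with more from Kcnc1, which pyramidal neurons also express, than from any other of the 8, was 244 to 307 CPM in Mutyh-/- and 292 to 317 CPM in WT. None of the 8 was at 0 in any NeuN+ library.

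Markers of CA2 pyramidal neurons (Rgs14, Pcp4, Amigo2, Necab2 and Cacng5) summed to 86.0 to 90.3 CPM in Mutyh-/- and 87.6 to 93.2 CPM in WT. Of these, 1 of 5 was lower without overlap, against 21.1% of all genes without overlap in either direction. Oligodendrocyte precursor markers summed to 2.58 to 3.98 CPM and 2.89 to 4.51 CPM in these NeuN+ groups, and their median log2 fold change was -0.40 with 0 of 4 above 0. Astrocyte markers had a median of -0.14 with 0 of 5 above 0, and oligodendrocyte markers -0.19 with 2 of 5. In bulk nuclei, fewer nuclei of a type and less RNA per nucleus cannot be told apart, and the part of interneuron or glial RNA in the Acan values was not tested.

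**Figure D3:**
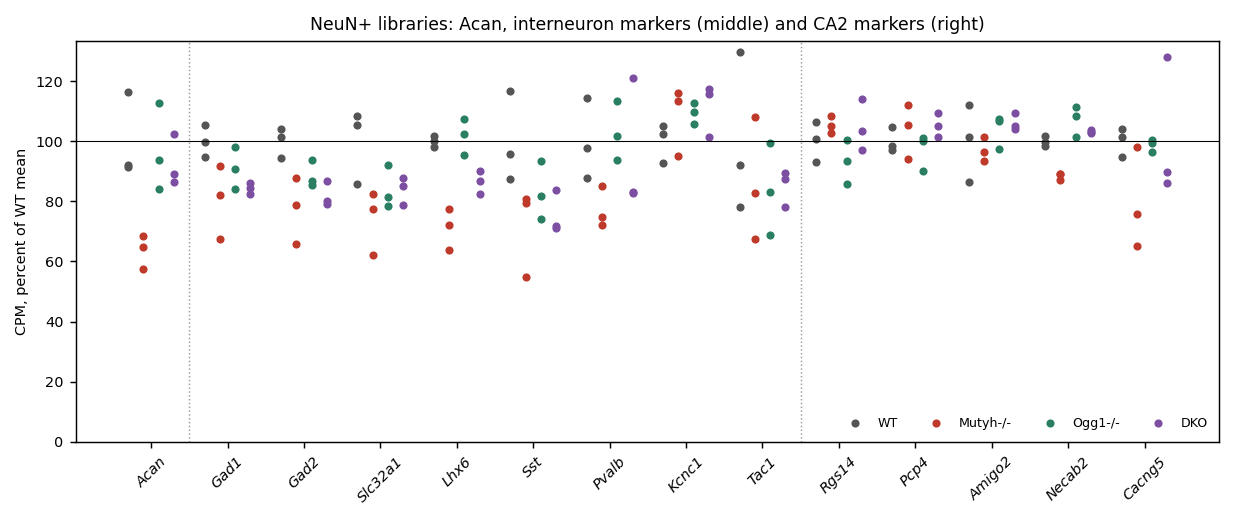
Level of Acan, 8 interneuron markers and 5 CA2 markers in the 12 NeuN+ libraries as a percentage of the WT mean of each gene (y axis), with 1 point per library and a colour per genotype. The Mutyh-/- points of Acan and of Gad1, Gad2, Slc32a1, Lhx6, Sst and Pvalb all lie below the WT points, and the DKO points of Acan overlap those of WT.

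In the tested genotype comparisons no member passed an adjusted p under 0.05 in edgeR's quasi-likelihood test. These were 63 tests of the 9 genes in 7 comparisons, with a smallest adjusted p of 0.151 and a largest absolute log2 fold change of 0.48. At an unadjusted p under 0.05 there were 11, or 17.5%, against 10.3% of the 217848 tests of all genes in the same comparisons. The comparisons share groups of libraries, so these are not separate results. Bcan, Hapln1 and Hapln4 each came up more than once, and Tnr and Hapln2 once each. In the edgeR likelihood ratio test 0 members passed the adjusted threshold as well. In DESeq2, Hapln2 in NeuN- Mutyh-/- and Bcan in NeuN- Ogg1-/- passed it.

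The comparison of DKO with Ogg1-/- in NeuN+ nuclei asks what loss of Mutyh did where Ogg1 was already lost. Neither of its groups served in the choice of Acan. Its filter, scaling factors and estimate of spread came from all 12 NeuN+ libraries, among them those that did. Acan had 4.36, 3.78 and 3.67 CPM in DKO and 3.99, 3.57 and 4.79 CPM in Ogg1-/-, and the groups overlapped. The log2 fold change was -0.06 ± 0.13 with a 95% interval of -0.34 to 0.21 (edgeR adjusted p = 1.00). Of the 9 members 0 passed the adjusted threshold and 1 had an unadjusted p under 0.05, against 0.252% and 4.26% of all genes. That member was Hapln1, with 6.31, 5.99 and 5.42 CPM in DKO and 7.63, 7.60 and 6.07 CPM in Ogg1-/-, which overlapped (log2 fold change -0.26 ± 0.11, edgeR adjusted p = 1.00). The median over the members was -0.07 and over all genes 0.00.

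DKO and Ogg1-/- were also compared with WT in NeuN+ nuclei, with the same WT libraries that served in the choice of Acan. For Acan the log2 fold change was -0.13 (95% interval -0.40 to 0.15, edgeR adjusted p = 0.723) in DKO and -0.06 (-0.34 to 0.21, edgeR adjusted p = 0.905) in Ogg1-/-, and both groups overlapped WT. Interneuron markers beside these values had a median log2 fold change of -0.26 in DKO, with 4 of 8 lower without overlap against 16.8% of all genes without overlap in either direction. In Ogg1-/- the median was -0.17, with 1 of 8 against 19.3%. None of the 8 passed the adjusted threshold by edgeR. At an unadjusted p under 0.05 there were 5 in DKO and 2 in Ogg1-/-, where 13.5% and 12.3% of all genes were.

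Hapln1 in DKO lay below all WT libraries, at 6.31, 5.99 and 5.42 CPM against 7.62, 7.40 and 6.92 CPM, a log2 fold change of -0.32 ± 0.11 (edgeR adjusted p = 0.197). Tnr in DKO, at 978, 1051 and 1050 CPM, lay above all WT libraries, a log2 fold change of 0.23 ± 0.07 (edgeR adjusted p = 0.173). These were the members with an unadjusted p under 0.05 in DKO, 2 of 9 against 13.5% of all genes, while 0.494% of all genes and 0 members passed the adjusted threshold. Without the filter on low counts Tnr passed (edgeR adjusted p = 0.0307).

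In Ogg1-/-, Bcan had 36.4, 34.1 and 32.1 CPM, above all WT libraries, a log2 fold change of 0.24 ± 0.09 (edgeR adjusted p = 0.283). Fitted with only the Ogg1-/- and WT libraries, Bcan passed (edgeR adjusted p = 0.0458). Hapln4 had 8.25, 7.98 and 7.88 CPM, which overlapped WT (log2 fold change -0.21 ± 0.09, edgeR adjusted p = 0.374). These too were 2 of 9 at an unadjusted p under 0.05, against 12.3% of all genes, and 1.10% of all genes passed the adjusted threshold. Hapln2 in Ogg1-/- was at 0.935, 0.997 and 0.919 CPM from 57 to 86 counts, above WT in every library (log2 fold change 0.37, 95% interval -0.06 to 0.80, edgeR adjusted p = 0.498).

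The NeuN+ Mutyh-/- level of Acan chose the genes, so no difference between the cell types is read from it. In NeuN- nuclei, Acan was compared with WT in each genotype. Its values were 13.7, 14.4 and 12.1 CPM in Mutyh-/- and 12.6, 11.0 and 11.8 CPM in WT, which overlapped, with a log2 fold change of 0.18 (95% interval -0.04 to 0.39, edgeR adjusted p = 0.451). Ogg1-/- had 13.3, 12.4 and 11.3 CPM and DKO 11.5, 12.1 and 14.4 CPM, with log2 fold changes of 0.05 (-0.16 to 0.27) and 0.09 (-0.12 to 0.30) against WT. Oligodendrocyte precursor markers beside these values summed to 379 to 482 CPM over the 12 NeuN- libraries, and the sums of the genotypes overlapped. Their median log2 fold change against WT was -0.01 in Mutyh-/- (1 of 4 above 0), -0.08 in Ogg1-/- and -0.14 in DKO (0 of 4 above 0 in each). None of the 4 had an unadjusted p under 0.05 in edgeR's test. In DKO 2 of 4 lay below WT without overlap, for which no share of all genes was counted.

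Hapln2 was the member with an unadjusted p under 0.05 in NeuN- Mutyh-/-, with 101, 97.3 and 97.7 CPM against 90.8, 77.2 and 79.8 CPM in WT. The groups did not overlap, and the log2 fold change was 0.25 ± 0.07 (edgeR adjusted p = 0.173, DESeq2 adjusted p = 0.0328). One such member of 9 stands against 13.7% of all genes at the unadjusted and 0.320% at the adjusted threshold. The 5 oligodendrocyte markers had a median log2 fold change of -0.06 in the same comparison, with 2 of 5 above 0 and none at an unadjusted p under 0.05.

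In NeuN- Ogg1-/-, Bcan had 389, 392 and 358 CPM against 316, 293 and 335 CPM in WT, without overlap. The log2 fold change was 0.26 ± 0.07 (edgeR adjusted p = 0.151, DESeq2 adjusted p = 0.0202). Hapln4 had 1.19, 1.54 and 1.24 CPM, all below the 3 WT libraries, the highest only just (log2 fold change -0.48 ± 0.15, edgeR adjusted p = 0.242). Hapln1 had 27.9, 27.4 and 19.6 CPM against 16.0, 18.1 and 20.5 CPM, which overlapped through Ogg1-/- replicate 3 (log2 fold change 0.45 ± 0.17, edgeR adjusted p = 0.305). These 3 of 9 compare with 11.8% of all genes at an unadjusted p under 0.05, and 0.342% of all genes passed the adjusted threshold.

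NeuN- DKO libraries held 354, 373 and 361 CPM of Bcan, above all WT libraries (log2 fold change 0.20 ± 0.07, edgeR adjusted p = 0.290), and 1.30, 1.48 and 1.47 CPM of Hapln4, below all WT libraries (-0.38 ± 0.15, edgeR adjusted p = 0.352). That was 2 of 9 against 12.4% of all genes at an unadjusted p under 0.05, with 0.179% of all genes past the adjusted threshold. Hapln1 in DKO, at 22.0, 23.8 and 22.5 CPM, also lay above WT (log2 fold change 0.32, 95% interval -0.04 to 0.68, edgeR adjusted p = 0.459).

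Astrocyte markers moved with these NeuN- values. The sum of Aqp4, Gfap, Slc1a3, Slc1a2 and Aldh1l1 was 2697 to 3205 CPM in WT, 3147 to 3991 CPM in Ogg1-/- and 3353 to 3516 CPM in DKO. All 5 had a log2 fold change above 0 in both, with medians of 0.30 and 0.27, and Aldh1l1 passed the adjusted threshold in Ogg1-/- (log2 fold change 0.52, edgeR adjusted p = 0.0483). Oligodendrocyte markers went the opposite way, at 5911 to 6645 CPM in WT, 5045 to 5667 CPM in Ogg1-/- and 4501 to 5578 CPM in DKO. The neuronal markers (Rbfox3, Snap25, Syt1, Slc17a7, Camk2a and Grin1), which like Hapln4 were higher in NeuN+ nuclei, summed to 446 to 533 CPM in WT, 375 to 453 CPM in Ogg1-/- and 369 to 446 CPM in DKO NeuN- libraries. Their median log2 fold changes were -0.30 in Ogg1-/- and -0.37 in DKO, with 0 past the adjusted threshold by edgeR. At an unadjusted p under 0.05, 5 of 6 and 6 of 6 were lower, against 11.8% and 12.4% of all genes in either direction. The part of the cell mixture in the Bcan, Hapln1 and Hapln4 values was not tested. Between DKO and Ogg1-/- in NeuN- nuclei no member had an unadjusted p under 0.05 in edgeR's test, where 4.34% of all genes did and 0.157% passed the adjusted threshold. DESeq2 and the likelihood ratio test passed 0 members there as well.

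**Figure D4:**
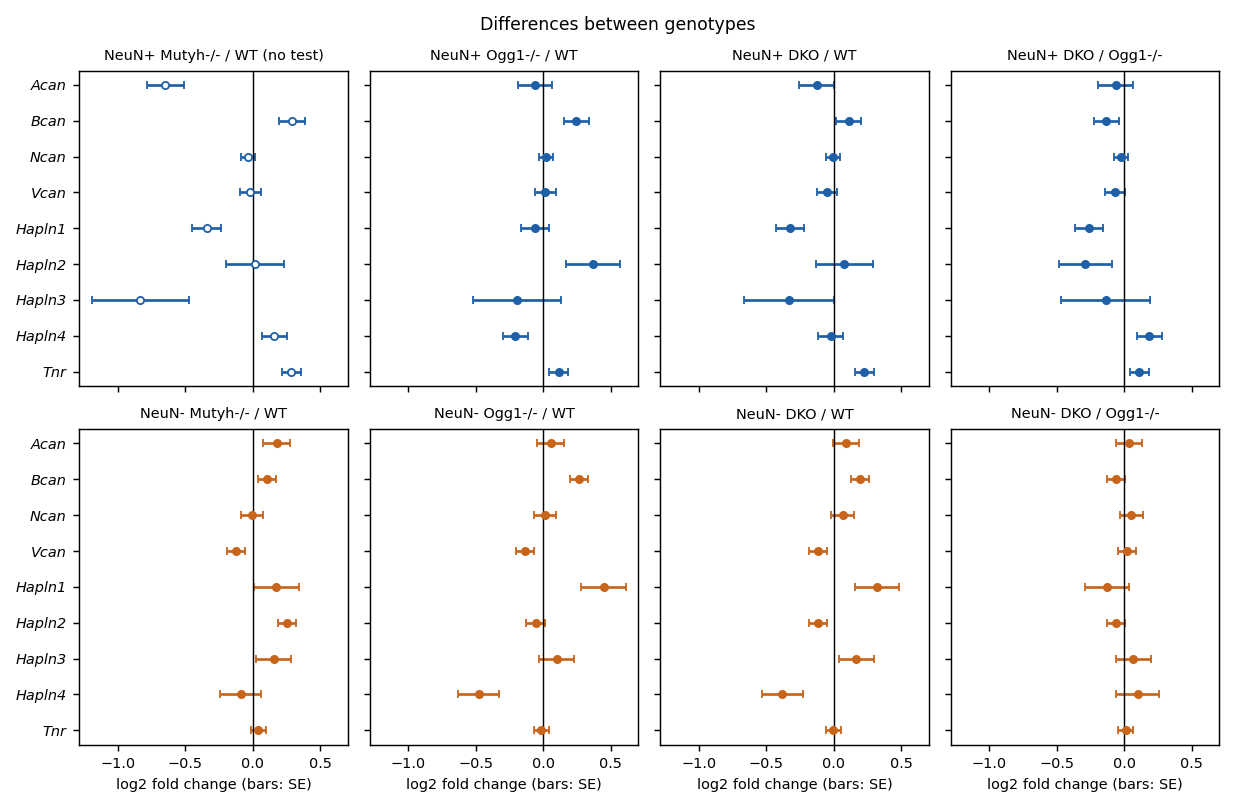
Log2 fold change (x axis) of the 9 members with its standard error in 8 genotype comparisons, NeuN+ in blue above and NeuN- in orange below; open points mark the comparison that chose Acan, which was not tested. Acan is at -0.65 in that panel, which chose it. In the tested NeuN+ panels it is at -0.06, -0.13 and -0.06, from left to right, and in all NeuN- panels it is above 0.

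An interaction term over all 24 libraries was used to test whether a difference between genotypes was itself unequal in neurons and glia. For DKO against Ogg1-/-, the NeuN+ difference minus the NeuN- difference was -0.10 for Acan (95% interval -0.45 to 0.25, edgeR adjusted p = 1.00), and no member passed either threshold, against 0.0447% of all genes at the adjusted and 4.24% at the unadjusted threshold. The same terms for the comparisons with WT were added after the data were seen. In DKO against WT, the term was -0.63 ± 0.21 for Hapln1 (edgeR adjusted p = 0.343), 0.24 ± 0.09 for Tnr (edgeR adjusted p = 0.443), 0.37 ± 0.17 for Hapln4 (edgeR adjusted p = 0.513) and -0.21 for Acan (95% interval -0.56 to 0.14). The first 3 had an unadjusted p under 0.05, against 9.40% of all genes, and 0.0567% of all genes passed the adjusted threshold. In Ogg1-/- against WT, the term was 0.43 ± 0.18 for Hapln2 (edgeR adjusted p = 0.633) and -0.50 ± 0.21 for Hapln1 (edgeR adjusted p = 0.643), 2 of 9 against 7.09% of all genes, with 0.0537% past the adjusted threshold.

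Genes whose profile was most like that of Acan over the 12 NeuN+ libraries were Nek4 (Pearson r of log2 CPM = 0.95), Fhitos (0.93), Tspan2os (0.93), Cchcr1 (0.93) and 6330411D24Rik (0.92), out of 20013 genes with a mean of at least 1 CPM. Among the members r with Acan was 0.40 for Hapln1, 0.04 for Ncan, 0.01 for Vcan, -0.45 for Bcan, -0.67 for Tnr and -0.73 for Hapln4. These are descriptions over libraries that share genotypes and include those that chose Acan, with no test, and Hapln2 and Hapln3 were too low to be ranked.

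The enzymes and partners that build, modify, cut or bind the nets were taken from 5 lists of 53 genes, of which 52 were tested, all but the protease Mmp3. In WT 12 were called higher in NeuN+ and 16 higher in NeuN- nuclei, 53.8% together against 42.9% of all genes. Of the hyaluronan synthases, Has1 was higher in NeuN+ (log2 fold change 1.86) and Has2 in NeuN- nuclei (-4.12). On the neuronal side were also Rtn4r, a receptor that binds chondroitin sulfate (2.91), Chsy3, which extends the chains (1.99), and Nptx2, a pentraxin held in the nets (1.76). Adamts4, a protease that cuts lecticans (-6.71), Cspg4 (-6.70), the sulfotransferase Chst3 (-5.18) and the receptor phosphatase Ptprz1 (-2.80) were on the non-neuronal side, each with an adjusted p under 0.05 by edgeR.

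In the 7 tested genotype comparisons 0 of the 52 passed the adjusted threshold in edgeR's test. At an unadjusted p under 0.05 there were 5 in NeuN+ Ogg1-/- against WT (9.62%, against 12.3% of all genes) and 10 in NeuN+ DKO (19.2% against 13.5%). In NeuN- nuclei there were 15 in Mutyh-/- (28.8% against 13.7%), 9 in Ogg1-/- (17.3% against 11.8%) and 7 in DKO (13.5% against 12.4%). DKO against Ogg1-/- had 2 in NeuN+ (3.85% against 4.26%) and 1 in NeuN- nuclei (1.92% against 4.34%). The 10 protein-coding genes next to the members, among them Isg20 beside Acan and Mfge8 beside Hapln3, likewise had 0 past the adjusted threshold in these comparisons. In the NeuN+ Mutyh-/- comparison 3 of the 9 that were measured there were higher without overlap and 0 lower, where 21.1% of all genes did not overlap.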

How the data were processed

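Per the labels and the study's methods, nuclear RNA libraries were made with a stranded total RNA kit. The authors aligned read pairs to GRCm38 and assigned the properly aligned ones to genes of the Ensembl annotation, release 102. The deposited values are raw counts per gene, in 1 table per cell type. The submitters' processing notes name FastQC 0.11.9, HISAT2 2.1.0, SAMtools 1.10, featureCounts, R 4.3.2 and edgeR 3.42.4. The strand setting and the treatment of introns and of overlapping genes are not given in the sources used here.

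From the counts, R 4.3.3 with edgeR 4.0.16 (limma 3.58.1) was used for filterByExpr, TMM factors and the quasi-likelihood test with Benjamini-Hochberg adjustment over all tested genes, 30132 in NeuN+, 31863 in NeuN- and 33523 in the fit of 24 libraries, with the 4 genotypes fitted together. Levels are CPM with TMM factors of the joint fit. DESeq2 1.42.0, the likelihood ratio test, RLE factors, other filters, a replicate block, 2-genotype fits and leaving out each library were alternatives. The fits were tested on simulated data. Gene positions are from GENCODE vM21 and promoters from RefSeq, both GRCm38.

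Named were the 9 members, Mutyh and Ogg1, the 5 genes most correlated with Acan in NeuN+, the genes next to the members, and genes needed to describe the matrix and marker lists. The members and the lists were chosen with earlier results of these data known. A chi-square test of the counts of each pair of libraries in a group gave at least 5.26 per degree of freedom, above sampling noise, so no library was counted as a duplicate.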

Additional observations from a re-analysis of the deposited data

Results flagged for a closer look

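Hapln1 in DKO against WT was flagged because its libraries lay entirely on opposite sides of WT in the 2 cell types. It was the only such case in a search over the 9 members. The share of all genes with this pattern was not counted. In NeuN+ DKO against WT alone, 16.8% of all genes had groups without overlap in either direction. The log2 fold change of Hapln1 was -0.32 in NeuN+ nuclei, where all 3 DKO libraries lay below all 3 WT libraries, and 0.32 in NeuN- nuclei, where all 3 lay above. The difference between them was tested by an interaction term added after the data were seen, -0.63 ± 0.21, with an edgeR adjusted p of 0.343. In the same comparisons the 5 astrocyte markers had a median log2 fold change of -0.23 in NeuN+ (0 of 5 above 0) and 0.27 in NeuN- DKO (5 of 5 above 0). Their median interaction term was -0.41, with 3 of 5 lower at an unadjusted p under 0.05, against 9.40% of all genes in either direction. The oligodendrocyte precursor markers had -0.47 in NeuN+ (0 of 4 above 0) and -0.14 in NeuN- (0 of 4 above 0). The oligodendrocyte markers had -0.43 in NeuN+ (1 of 5 above 0) and -0.22 in NeuN- (0 of 5 above 0). Interneuron markers had -0.26 in NeuN+ and -0.18 in NeuN- (1 of 8 above 0 in each). The part of these cell types in the Hapln1 values was not tested. Groups of 3 libraries are too small for a test of single outlying libraries.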

How the results depend on the processing

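The count of members with an adjusted p under 0.05 was 0 in every genotype comparison and changed to 1 under 4 settings: NeuN+ Ogg1-/- against WT with only those 2 genotypes (Bcan, edgeR adjusted p = 0.0458), NeuN+ DKO against WT with no low-count filter (Tnr, edgeR adjusted p = 0.0307), and with DESeq2 NeuN- Mutyh-/- against WT (Hapln2, adjusted p = 0.0328) and NeuN- Ogg1-/- against WT (Bcan, adjusted p = 0.0202). Over all genes the same settings moved the number past that threshold from 331 to 836, from 149 to 573 and from 109 to 586, and to 599 for NeuN- Mutyh-/- against WT. The cause was not tested. With any single library left out the counts remained 0 for the genotypes, and between cell types in WT 8 members passed throughout. That count was 7 with at least 10 counts in every library, since Hapln3 was then not tested.

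The sign of Acan turned where single libraries were left out, always near 0. The log2 fold change ranged from -0.19 (without Ogg1-/- replicate 3) to 0.055 (without WT replicate 1) in NeuN+ Ogg1-/- against WT, where it was 0.041 without Ogg1-/- replicate 2. It ranged from -0.17 to 0.069 (without Ogg1-/- replicate 3) in NeuN+ DKO against Ogg1-/-, from -0.0017 (without Ogg1-/- replicate 1) to 0.11 in NeuN- Ogg1-/- against WT, from -0.010 (without DKO replicate 3) to 0.16 in NeuN- DKO against WT, and from -0.073 (without DKO replicate 3) to 0.11 in NeuN- DKO against Ogg1-/-, where it was -0.019 without Ogg1-/- replicate 3. The interaction term ranged from -0.19 to 0.028 (without NeuN+ Ogg1-/- replicate 3) for DKO against Ogg1-/-, with 0.0024 without NeuN- DKO replicate 3, and from -0.24 to 0.014 (without NeuN+ WT replicate 1) for Ogg1-/- against WT. Over all members 63 of 1299 genotype values turned, 0 of them for members with an unadjusted p under 0.05. In the comparison that chose Acan, its log2 fold change lay between -0.70 and -0.53 with 1 library left out, that of Bcan between 0.21 and 0.41, and that of Hapln3 between -1.54 and -0.55, the lower end without Mutyh-/- replicate 3.

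Libraries share replicate numbers. Between genotypes, libraries of 1 number correlated in their deviations with a mean r of -0.0049 in NeuN+ and 0.046 in NeuN-. Between NeuN+ and NeuN- of 1 genotype the mean r was 0.11 with all 12 pairs above 0 (0.011 to 0.29, 6 over 0.1), against -0.055 for different numbers, short of the limit of 0.1 in every pair that was set for pairing. The replicate block gave libraries of 1 number a shared term over all genotypes. It did not model a pairing of NeuN+ and NeuN- libraries within a genotype, so the cell-type and interaction results were not checked against such a pairing. With the block 0 members passed in any genotype comparison or interaction term and 8 passed between cell types. The Acan value was then -0.65 in NeuN+ Mutyh-/- and -0.07 in NeuN+ DKO against Ogg1-/-. Over all genes the block moved the count past the threshold from 331 to 502 in NeuN+ Ogg1-/- and from 149 to 338 in NeuN+ DKO against WT. Counts as low as 7 limit Hapln3 in NeuN+ nuclei.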
